A study of Mus musculus with 19 samples.

Results

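A shared transcriptional response to 2 knockdowns of COPII coat genes was described in mouse embryonic fibroblasts. A gene was taken as shared when its level differed between knockdown and scrambled siRNA in each of 2 pairs of groups, at a limma adjusted p of at most 0.05, with the same direction in both. Of 19716 genes in the table, 19635 passed the filter on low values and were tested, and 1441 of these were shared. Among the shared genes 630 were higher in both knockdowns, 3.21% of the genes tested, and 811 were lower in both, 4.13%. The 2 tests chose these genes, so the effects in each pair are given as descriptions of them.

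All 19 libraries came from a fibroblast line of mouse embryo origin labelled as a Sec24D knockout, a label that the controls carry too. In the first pair, 5 libraries received siRNA against Sec24B (Sec24B knockdown) and 4 received scrambled siRNA at 50 nM. In the second pair, 5 libraries received siRNAs to Sec24B, Sec24A and Sec24C at once (triple knockdown) and 5 received scrambled siRNA at 150 nM. All are labelled 48 h, but the protocol has RNA collected the day after a medium change on the morning after transfection, so the exact time is uncertain. The labels give 50 nM for SEC24 siRNA without saying whether that is for each or in total. How the knockout was made, and whether the line is a clone, is not given in the sources used here. Whether replicates came from separate cultures is not in the labels; p-values may then reflect only technical spread between these libraries. The 2 pairs have no library in common.

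COPII is the coat that buds transport vesicles from the endoplasmic reticulum (ER). SAR1 recruits the inner coat of SEC23 and SEC24, the outer coat of SEC13 and SEC31 then assembles, and SEC24 binds the export signals of cargo. Fibroblasts send large amounts of collagen and other matrix proteins through this route, and the SEC24 paralogs differ in the signals they bind.

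Sec24b (ENSMUSG00000001052, chromosome 3, 129982759 to 130061553, GRCm38), the siRNA target that the 2 knockdowns share, was reduced in every knockdown library. Its normalised read count was 1067, 1126, 1217 and 1046 with 50 nM scrambled siRNA and 454, 487, 498, 485 and 473 in the Sec24B knockdown. In the other pair it was 1253, 1219, 1256, 1159 and 1223 with 150 nM scrambled siRNA and 369, 531, 606, 603 and 436 in the triple knockdown. No knockdown library reached the lowest scrambled library, and the log2 fold changes were -1.21 ± 0.10 and -1.29 ± 0.10 (fit standard error), with a difference of -0.07 ± 0.14 (limma adjusted p = 0.788). Sec24c and Sec24a were lower in the triple knockdown (-1.79 and -0.76, the latter -0.47 without triple knockdown replicates 1 and 5) and did not pass in the Sec24B knockdown (-0.00, adjusted p = 0.988, and -0.19, adjusted p = 0.422). Sec24d reads were counted in all groups (379–459.8, lowest to highest library, with 50 nM scrambled siRNA) and passed in neither pair (adjusted p = 0.866 and 0.651); which part of the gene was deleted is not in the labels, so reads outside it check nothing.

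The libraries held 9101855 to 19709672 reads, recovered from the deposited values, so 1 read was worth 0.736 to 1.64 normalised counts. Triple knockdown replicate 1 stood apart from its group: its median correlation with the other 4 was 0.971, against 0.987 to 0.997 in the other 18 libraries. Of the 10 fibroblast markers listed 9 were measured, with a summed normalised count of 491036 to 531519 at 50 nM scrambled siRNA, 403668 to 474772 in the Sec24B knockdown, 462192 to 562134 at 150 nM and 317793 to 344539 in the triple knockdown; its part in the falls given below was not tested. Col1a1, Fn1 and Col1a2 made up most of that sum (mean levels 147154, 134621 and 88015; average log2 fold changes -0.57, -0.38 and -0.37), while Dcn rose on average (0.59, limma adjusted p = 2.40e-04) and Pdgfra, S100a4 and Vim did not pass (0.01, -0.02 and -0.10). In bulk samples, fewer cells of a type and less RNA per cell cannot be told apart. Of 6 macrophage markers 3 were measured at a summed 56.6 to 157, 5 of 5 endothelial markers at 85.4 to 195 and 3 of 5 epithelial markers at 14.9 to 44.4. Of 5 skeletal muscle markers 2 were measured at a summed 119 to 302, of 4 adipocyte markers 2 at 9.78 to 28.8 and of 4 neural markers 1 at 0 to 10.7. None of 5 erythroid markers was among the genes tested, nor were Ptprc, Epcam, Myod1, Plin1 or Sox2. Among all these markers Pdgfrb (average log2 fold change -0.45) was lower in both pairs and Des (0.56) higher in both.

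The Sec24B knockdown changed 2868 genes (14.6% of those tested) and the triple knockdown 6680 (34%). The shared genes made up 50.2% of the former list and 21.6% of the latter. A further 264 genes (1.34%) passed in both pairs in opposite directions, 167 of them higher in the Sec24B knockdown and lower in the triple knockdown, and 97 the reverse. The average of the 2 effects passed for 6327 genes (32.2%), 3210 higher (16.3%) and 3117 lower (15.9%). All 1441 shared genes were among them, whereas 3417 of the others passed only in the triple pair, 798 only in the Sec24B pair, 634 in neither and 37 in opposite directions. On the edge of the threshold, Hemk1 and Usb1 were shared with a larger adjusted p of 0.0498 each, and Stard5 and Comtd1 were not, each just past 0.05.

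**Figure D1:**
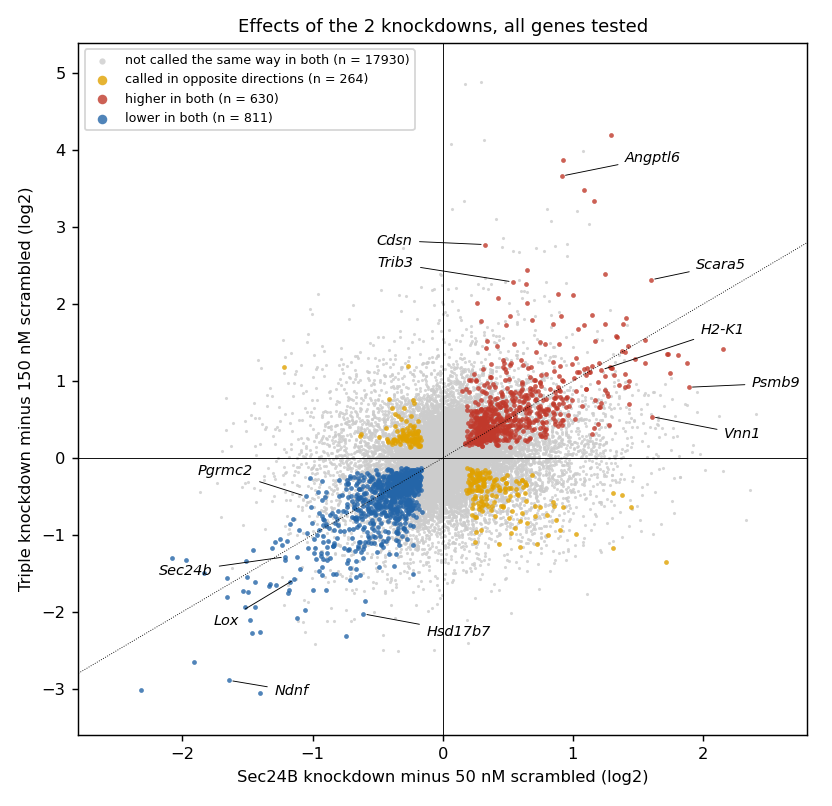
Log2 fold change of every gene tested, with the Sec24B knockdown horizontal and the triple knockdown vertical, each against its own scrambled control. Red and blue points are the 630 and 811 shared genes, yellow points the 264 called in opposite directions, grey points all others; the dotted line marks equal effects.

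Most shared changes were moderate in size. Genes higher in both had a median log2 fold change of 0.46 for the Sec24B knockdown and 0.52 for the triple knockdown, and genes lower in both -0.38 and -0.46, beside 0.01 and 0.01 over all genes tested. At least a 2-fold change in both pairs was seen for 45 of the higher genes and 39 of the lower genes (0.229% and 0.199% of genes tested). All libraries of each knockdown lay above all controls of their own pair for 400 of the 630 higher genes (2.59% of all genes tested showed this), and below them for 615 of the 811 lower genes (4.04%). Against both control groups at once, all 10 knockdown libraries lay above all 9 scrambled libraries for 243 higher genes and below them for 423 lower genes. Over all genes tested, shared or not, 299 (1.52%) lay above and 503 (2.56%) below in this way. Shared genes were expressed above the typical gene: the median level was 301 normalised counts for the higher and 880 for the lower genes, against 141 over all genes tested. Protein-coding genes made up 93.4% and 95.9% of them, against 72.9% of genes tested with a biotype.

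The test of the difference between the 2 effects passed for 3107 genes (15.8%), among them 110 of the shared higher genes and 150 of the shared lower genes. The change was larger in the triple knockdown for 84 of these 110 and 119 of these 150. The scrambled doses also differed from each other: 805 genes (4.1%) were lower and 932 (4.75%) higher at 150 than at 50 nM. Among the shared genes, 114 of the higher ones were lower at 150 nM and 25 higher, while 42 of the lower ones were lower and 122 higher. These comparisons use the same scrambled libraries as the pairs, so the counts are given side by side only.

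Ndnf (ENSMUSG00000049001, chromosome 6, 65671590 to 65712326), a secreted protein with fibronectin type III domains, headed the 12 largest shared falls (by the smaller of the 2 effects, among genes of at least 50 counts). Its count was 213, 209, 268 and 201 with 50 nM scrambled siRNA and 71.3, 71.6, 66.5, 65.7 and 76.9 in the Sec24B knockdown. With 150 nM scrambled siRNA it was 456, 370.2, 387, 479 and 494, and in the triple knockdown 40.8, 59.7, 66.4, 79.6 and 49.1. All knockdown libraries lay below all scrambled libraries, and the log2 fold changes were -1.64 ± 0.15 and -2.89 ± 0.14 (limma adjusted p = 3.63e-08 and 3.73e-14). The fall was larger in the triple knockdown (difference -1.25 ± 0.20, adjusted p = 8.53e-05), and the 150 nM controls stood above the 50 nM controls (0.97, adjusted p = 7.91e-05).

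Others of the 12 largest falls were Slco1a5, an organic anion transporter (-1.53 and -1.74), and Spp1, the secreted glycoprotein osteopontin (-1.19 and -1.75). Slco1a5 had close levels in the 2 control groups (48.4–58.9 and 52.9–57.8) and in the 2 knockdowns (13.9–20.9 and 11.7–22.4). The axon guidance ligand Sema5a fell (mean ± SD) from 1878 ± 143 to 766 ± 54.7 and from 1999.9 ± 83.8 to 970.2 ± 263, and Plxna4, a semaphorin receptor, by log2 fold changes of -1.03 and -1.17. Pappa, a secreted protease that cleaves IGF-binding proteins, changed by -0.99 and -1.05, the latter -0.62 without triple knockdown replicates 1 and 5. Klhl30 (-1.28 and -1.66) and Nrep (-1.06 and -1.97) were also in the set, as were Sec24b, Ccn2 and Lox. In each of these genes the libraries of a pair did not overlap, a condition of the rule that named them. In Spp1, Klhl30, Pappa and Plxna4 the 150 nM controls were higher than the 50 nM controls (log2 differences 1.58, 0.89, 0.76 and 0.56). Limma adjusted p was 6.34e-07, 0.00118, 0.0168 and 0.0273. The triple knockdown overlapped the 50 nM controls in each of them, as in Spp1 (654–1575 against 1180–1594).

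Ccn2 (ENSMUSG00000019997, chromosome 10, 24595442 to 24598683), a matricellular protein that TGF-beta and the YAP and TEAD pathway are known to induce, had one of the 12 largest falls. It was 1004, 1215, 1441 and 1969 with 50 nM scrambled siRNA and 438, 463, 507, 492 and 497 in the Sec24B knockdown. It was 2901, 2668, 3698, 4609 and 3764 with 150 nM scrambled siRNA and 909, 1309.8, 1572, 1406 and 1795 in the triple knockdown. The groups of each pair did not overlap (log2 fold changes -1.51 ± 0.17 and -1.34 ± 0.16; limma adjusted p = 1.16e-06 and 4.35e-07). The triple knockdown overlapped the 50 nM controls, and Ccn2 was higher at 150 than at 50 nM scrambled siRNA (1.34, adjusted p = 9.33e-06). Shared falls made up 30.8% of the list of TGF-beta ligands and targets, against 4.13% of all genes tested. They were 4 of 13 measured genes, with 0 shared rises and list medians of -0.12 and -0.36. Among them were Pmepa1, a feedback inhibitor of the pathway (-0.77 and -0.69), the repressor Bhlhe40 (-0.67 and -0.78) and Skil, a SMAD corepressor (-0.93 and -0.31). Skil did not pass in the triple pair without triple knockdown replicates 1 and 5 (-0.15, limma adjusted p = 0.154).

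Several matrix genes fell in both knockdowns. Shared falls were 26.7% of matrix glycoproteins and proteoglycans, 26.1% of collagen chains and 17.9% of collagen modification genes, against 4.13% of all genes tested. The last held 1 shared rise (3.57%, against 3.21% of all genes tested). Among matrix glycoproteins and proteoglycans 8 of 30 were lower in both and 0 higher (medians 0.06 and -0.51), among collagen chains 6 of 23 and 0 (medians -0.04 and -0.51), and among genes of collagen modification and cross-linking 5 of 28 and 1 (medians -0.01 and -0.17). Lox (ENSMUSG00000024529, chromosome 18, 52516067 to 52529867), the lysyl oxidase that cross-links collagen and elastin, was 11602, 12141, 12078 and 11313 with 50 nM scrambled siRNA and 4778, 5365, 5323, 5809.7 and 5511 in the Sec24B knockdown. The 150 nM controls held 11213, 10653, 12230.5, 11636 and 10973 and the triple knockdown 2899, 4276, 4336, 4107 and 3536. The 2 control groups overlapped each other, and every knockdown library lay far below them (log2 fold changes -1.14 ± 0.09 and -1.58 ± 0.08, limma adjusted p = 9.03e-09 and 2.95e-13). The fall was larger in the triple knockdown (difference -0.44 ± 0.12, adjusted p = 0.0136). Its relative Loxl1 changed by -0.35 and -0.69, and Sparc, a collagen-binding glycoprotein, by -0.57 and -0.69.

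Thbs1 (ENSMUSG00000040152, chromosome 2, 118111876 to 118127133), which encodes thrombospondin 1, an adhesive glycoprotein that also activates latent TGF-beta, was 26076, 30356, 34398 and 34404 with 50 nM scrambled siRNA and 13685, 17069, 18128, 16577 and 16739 in the Sec24B knockdown. It was 26983, 26132, 35976, 37976 and 33950.3 with 150 nM scrambled siRNA and 9090.1, 10669, 12339, 12016 and 11435 in the triple knockdown. No knockdown library overlapped a control, and the triple knockdown was the lower of the 2 (-0.93 ± 0.12 and -1.53 ± 0.11, difference -0.60 ± 0.16, limma adjusted p = 0.01). Tnc, the matrix protein tenascin C, changed by -0.67 ± 0.12 and -1.55 ± 0.11. Of the collagens, Col7a1, the anchoring fibril collagen of basement membranes, changed by -0.63 ± 0.08 and -1.10 ± 0.07, and the fibril-associated Col12a1 by -0.71 ± 0.14 and -1.43 ± 0.13; both effects were larger in the triple knockdown (adjusted p = 0.00274 and 0.0121). The basement membrane chains Col4a1, Col4a2 and Col4a5 and the fibrillar Col5a2 were the other members. The abundant fibrillar chains Col1a1 and Col1a2 were not shared, although their averages passed (-0.57 and -0.37), and Col3a1 was called in opposite directions.

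**Figure D2:**
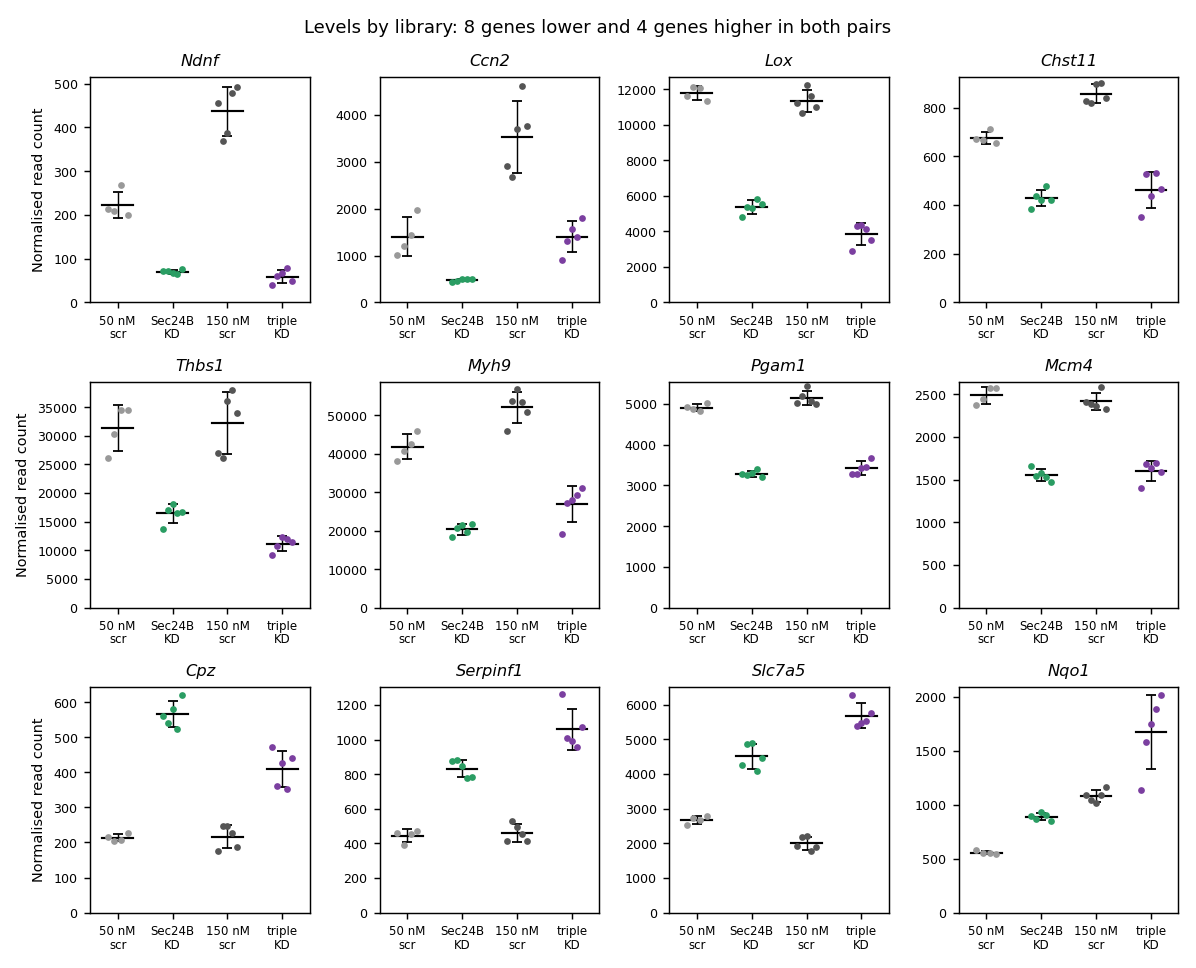
Normalised read count of each library for 8 genes lower and 4 genes higher in both pairs, with the group mean and SD as bars (4 libraries with 50 nM scrambled siRNA, 5 in each other group; axes start at 0). In each panel the points of a knockdown do not overlap those of its own control except in Nqo1, where 1 triple knockdown library (1131) lies within the 150 nM range of 1017–1159.

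Some contractile and adhesion genes were lower as well. Shared falls were 40% of the contractile list and 30.8% of the integrin and planar cell polarity list, against 4.13% of all genes tested. Of 15 contractile genes 6 fell in both pairs and 0 rose (medians -0.13 and -0.40). Myh9 (ENSMUSG00000022443, chromosome 15, 77760587 to 77842175), the heavy chain of non-muscle myosin IIA, was 38095, 40756, 42588 and 45797 with 50 nM scrambled siRNA and 18207, 20602, 21360.2, 19589 and 21661 in the Sec24B knockdown. It was 45950.3, 53587, 56769.9, 53389 and 50835 with 150 nM scrambled siRNA and 19021, 27296, 28039.5, 29121 and 30953 in the triple knockdown. The groups of each pair were separate, and the difference between the 2 falls did not pass (-1.04 ± 0.11 and -0.97 ± 0.10, difference 0.07 ± 0.15, limma adjusted p = 0.804). Tropomyosin Tpm1 changed by -0.25 ± 0.05 and -0.58 ± 0.05, and Tpm4, Actn1, Cald1 and Tagln were the other members. Of 26 integrin and planar cell polarity genes 8 fell and 0 rose (medians -0.14 and -0.32), including Itga5, the fibronectin receptor subunit (-0.33 and -0.62), the laminin receptor subunit Itga3 (-0.34 and -0.79) and Fzd6, a Frizzled receptor of planar polarity (184–224 to 95.9–135 and 161–179 to 74.8–107). Vangl2, a polarity protein known as SEC24B cargo in mice, is in that list and was not shared (-0.20, limma adjusted p = 0.107, and -0.44, adjusted p = 5.65e-05).

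Some of the enzymes that build the sugar chains of secreted proteins were lower in both knockdowns. In the list of Golgi glycosylation and glycosaminoglycan genes 8 of 29 fell and 0 rose (medians -0.05 and -0.38). These falls were 27.6% of the list, against 4.13% of all genes tested. For 8 genes of the list all 10 knockdown libraries lay below all 9 scrambled libraries, as for 2.56% of all genes tested. Chst11, a chondroitin sulfotransferase, went from 654–710.5 to 384–478 and from 819–899 to 349–530.4 (-0.66 ± 0.09 and -0.90 ± 0.09). Ext1, a heparan sulfate polymerase, changed by -0.39 ± 0.06 and -0.55 ± 0.05, and St6gal1, a sialyltransferase, by -0.42 ± 0.09 and -0.82 ± 0.08.

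Glycolysis and hypoxia genes gave the highest share of shared falls of the 29 lists described: 13 of 28 fell in both pairs and 1 rose (46.4% lower, against 4.13% of all genes tested; medians -0.28 and -0.24). Pgam1 (ENSMUSG00000011752, chromosome 19, 41911923 to 41918660), phosphoglycerate mutase, was 4924, 4881, 4816 and 5012 with 50 nM scrambled siRNA and 3278, 3248, 3297, 3407 and 3210.1 in the Sec24B knockdown. With 150 nM scrambled siRNA it was 5021, 5189, 5434, 5061 and 5009, and in the triple knockdown 3281, 3274, 3430.2, 3449.8 and 3680.1. No knockdown library overlapped a control, and the difference between the effects did not pass (-0.58 ± 0.05 and -0.59 ± 0.05, difference -0.01 ± 0.07, limma adjusted p = 0.951). Lactate dehydrogenase Ldha changed by -0.44 ± 0.06 and -0.51 ± 0.06, and the glucose transporter Slc2a1 and the enzymes Pfkl, Tpi1, Gapdh, Pgk1, Eno1 and Pkm fell in both pairs too. Pdk1, Bnip3, Egln1 and Egln3, known targets of the hypoxia factor HIF1, completed the 13. The exception was Ndrg1, which is also induced by hypoxia: it rose from 742 ± 37.5 to 1064 ± 82.7 and from 589.6 ± 50.8 to 2163 ± 519 (0.52 ± 0.11 and 1.85 ± 0.10).

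Chaperone, replication and sterol genes also held shared falls. Such falls were 40% of the heat shock chaperone list and 28% of the replication list, against 4.13% of all genes tested. Of 15 cytosolic heat shock chaperone genes 6 fell and 0 rose (medians -0.27 and -0.19). Hspa4l changed by -0.88 ± 0.13 and -1.08 ± 0.13 and Hsph1 by -0.34 ± 0.06 and -0.35 ± 0.05; the near-identical Hspa1a and Hspa1b, whose reads the counting may have split, were also members. Of 25 DNA replication and S phase genes 7 fell and 0 rose (medians -0.08 and -0.23). Mcm4, a subunit of the replicative helicase, was 2369, 2449, 2570 and 2569 with 50 nM scrambled siRNA and 1656, 1543, 1575, 1528 and 1471 in the Sec24B knockdown. In the other pair it was 2414, 2387, 2362, 2581 and 2330.2 in controls and 1399.9, 1682, 1632, 1699 and 1586 in the triple knockdown, so that all 10 knockdown libraries lay below all 9 controls (-0.68 ± 0.06 and -0.60 ± 0.06). The G1/S cyclin Ccne1 (-0.70 and -0.77) and the transcription factor E2f1 (-0.41 and -0.44) were other shared genes.

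In the cholesterol list 8 of 25 genes fell in both (32%, against 4.13% of all genes tested) and 0 rose. A further 3 were called in opposite directions (1.34% of all genes tested were), and the list medians were -0.07 and -1.08. All 8 fell by more in the triple knockdown. Hsd17b7 (ENSMUSG00000026675, chromosome 1, 169949535 to 169969241), an enzyme of the later part of the pathway, was 375, 476, 402 and 354 with 50 nM scrambled siRNA and 241, 259, 241, 286 and 284 in the Sec24B knockdown. It was 385, 323, 381, 352 and 342 with 150 nM scrambled siRNA and 85.5, 89.0, 73.9, 109 and 78.8 in the triple knockdown. The groups formed 3 levels, with the 2 controls overlapping, the Sec24B knockdown below them and the triple knockdown lowest (-0.61 ± 0.11 and -2.03 ± 0.10, difference -1.42 ± 0.15, limma adjusted p = 1.96e-07). Sqle, Nsdhl and Sc5d, enzymes of the same pathway, were also shared, as were Stard4 and Acat2. In the fatty acid list Acsl3, an acyl-CoA synthetase, was lower (-0.35 and -1.08) and Elovl5 higher.

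Of 20 chemokine and NF-kB response genes 4 fell in both (20%, against 4.13% of all genes tested) and 0 rose (medians 0.19 and -0.44). Ccl2, a monocyte chemokine, went from 3894–4316 to 2762–2958 and from 2702–3186 to 1399–1615. Nfkb1 changed by -0.45 ± 0.06 and -0.57 ± 0.06, and Ptgs2, the inducible cyclooxygenase, by -0.93 ± 0.14 and -0.55 ± 0.13, the latter -0.31 without triple knockdown replicates 1 and 5. In the immediate early list the AP-1 subunits Fosl2 (-0.67 and -1.22) and Jun were lower, while Egr1 rose (1.27 and 0.43). Egr1 went from 143–186 to 354–466 in the Sec24B pair and from 48.3–67.4 to 60.8–92.3 in the triple pair. Its triple knockdown libraries thus overlapped their own control and lay below the 50 nM controls. In the list of RNA interference machinery, of which siRNAs make use, the slicer Ago2 was lower (-0.54 and -0.81). It was the only shared gene of 13 (7.69%, against 4.13% of all genes tested).

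**Figure D3:**
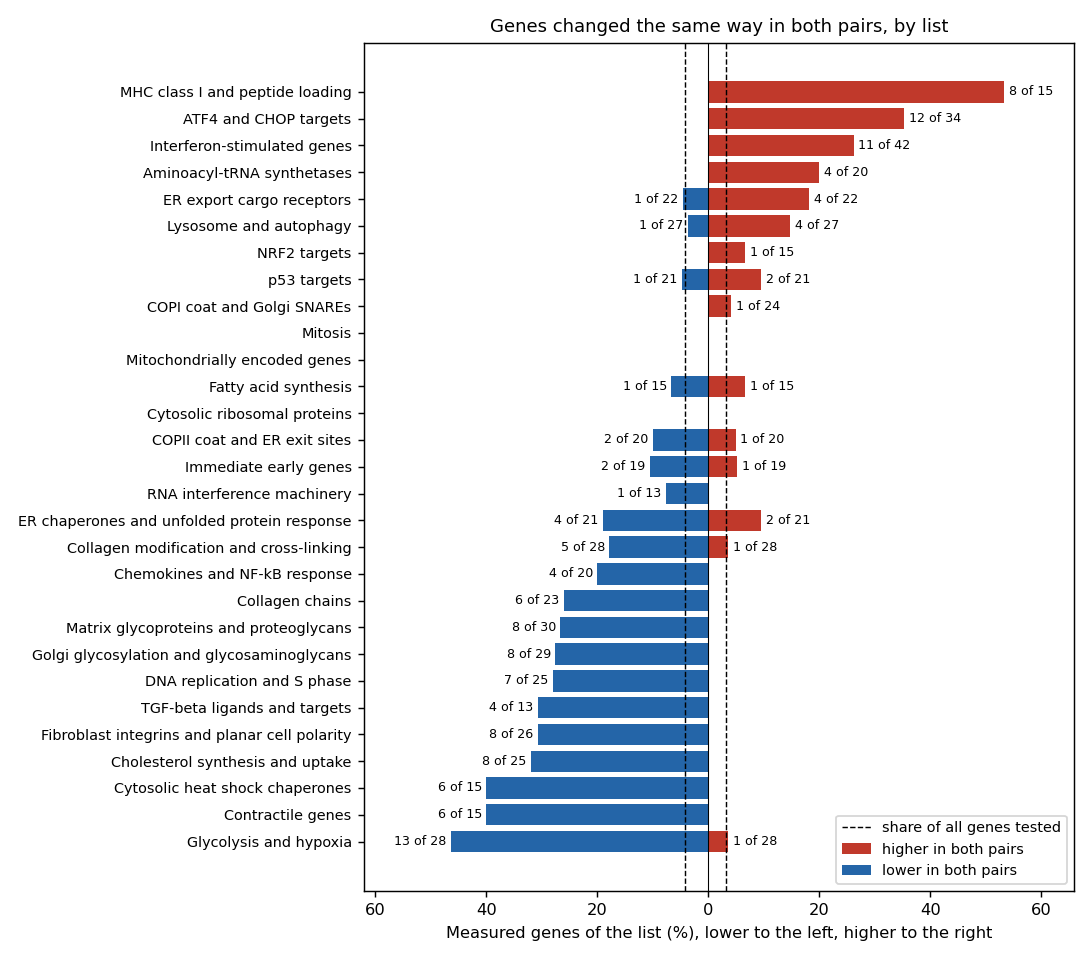
Share of the measured genes of each of 29 lists that were higher (red, to the right) or lower (blue, to the left) in both pairs, in percent, with the counts beside the bars. Dashed lines mark the share over all genes tested, 3.21% higher and 4.13% lower; MHC class I genes have the highest share of shared rises and glycolysis and hypoxia genes of shared falls.

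Scara5 (ENSMUSG00000022032, chromosome 14, 65666403 to 65764826), a ferritin receptor, headed the 12 largest shared rises (by the smaller of the 2 effects, among genes of at least 50 counts). It was 54.3, 53.7, 30.6 and 23.6 with 50 nM scrambled siRNA and 112, 142, 106, 106 and 129 in the Sec24B knockdown. In the other pair it was 11.5, 8.19, 16.5, 15.2 and 20.9 with 150 nM scrambled siRNA and 167, 61.9, 51.5, 61.9 and 61.8 in the triple knockdown. Each knockdown lay above its control, with triple knockdown replicate 1 far above the rest of its group, and the 50 nM controls lay above the 150 nM controls (1.60 ± 0.29 and 2.32 ± 0.28; limma adjusted p = 4.55e-04 and 4.07e-07). Cpz, a secreted carboxypeptidase, had similar controls (216, 205, 207 and 227 with 50 nM and 176, 246, 248, 228 and 187 with 150 nM). It stood at 559, 542, 581, 525 and 622 with Sec24B knocked down and 471, 362, 426, 352 and 441 in the triple knockdown, a larger rise in the former (1.40 ± 0.10 and 0.92 ± 0.10, difference -0.48 ± 0.14, adjusted p = 0.0212). Serpinf1, the secreted serpin PEDF, went from 445 ± 35.6 to 833 ± 50.0 and from 461 ± 51.7 to 1059 ± 121. The proteoglycan Ogn rose by 0.92 and 1.00, the endosomal protein Sh3tc2 by 1.25 and 2.40 and the chromatin remodeller Chd5 by 0.90 and 1.48. Mpeg1, a pore-forming protein best known from macrophages, rose by 0.89 and 0.88, while the 3 macrophage markers measured, Csf1r, Cd68 and Lyz2, had average log2 fold changes of -0.63, -0.66 and 0.52 (limma adjusted p = 0.00529, 8.94e-05 and 0.262). In Mpeg1 and Ogn the 150 nM controls were lower than the 50 nM controls (log2 differences -1.44 and -1.19). The triple knockdown lay below the 50 nM controls in Mpeg1 (114–148 against 185–208) and overlapped them in Ogn (115–226 against 131–212).

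A number of antigen presentation and interferon response genes rose in each pair against their own control. Of 15 genes of MHC class I and peptide loading 8 were higher in both and 0 lower (medians 0.74 and 0.42). Of 42 interferon-stimulated genes 11 were higher in both and 0 lower (medians 0.34 and 0.17). The higher ones were 53.3% and 26.2% of the lists, against 3.21% of all genes tested. Rsad2 (ENSMUSG00000020641, chromosome 12, 26442746 to 26456452), the antiviral enzyme viperin, was 247, 222, 244 and 253 with 50 nM scrambled siRNA and 363, 572, 561, 616 and 495 in the Sec24B knockdown. It was 75.0, 93.4, 80.4, 65.4 and 74.0 with 150 nM scrambled siRNA and 237, 180.3, 153, 159 and 147 in the triple knockdown. The difference between the 2 rises did not pass (1.09 ± 0.14 and 1.15 ± 0.13, difference 0.07 ± 0.19, limma adjusted p = 0.873) and 4 of the 5 triple knockdown libraries lay below the lowest 50 nM control and the other within the range of those controls. The 150 nM controls were lower than the 50 nM controls (log2 difference -1.63, adjusted p = 6.64e-08).

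That order of the controls held for all 11 shared interferon-stimulated genes and for 6 of the 8 shared MHC class I genes, which were lower at 150 than at 50 nM scrambled siRNA (4.1% of all genes tested were). For none of these 19 genes did all 10 knockdown libraries lie above all 9 scrambled libraries, so their shared rise is one against the control of their own pair. H2-K1 (ENSMUSG00000061232, chromosome 17, 33996017 to 34000347), a class I heavy chain, was 1835, 1619, 1850.1 and 2370.2 with 50 nM scrambled siRNA and 4197, 5033, 4882, 4154 and 3968 with Sec24B knocked down. In the triple pair it was 760.4, 1148, 1151, 892 and 748 in controls and 3393, 1591, 1659, 1686 and 2357 in the knockdown. The triple knockdown thus overlapped the 50 nM controls while every library of it was above its own control (1.22 ± 0.17 and 1.15 ± 0.16). H2-D1 rose by 0.75 and 0.82; class I genes are near-identical in sequence, and how reads that map to several of them were counted is not given in the sources used here.

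Psmb9, a subunit of the immunoproteasome, and Tap1, part of the peptide transporter into the ER, rose more in the Sec24B knockdown. Psmb9 went from 48.7–74.4 to 186–238 and from 23.7–31.3 to 34.9–92.3 (1.89 ± 0.20 and 0.92 ± 0.19, difference limma adjusted p = 0.0173). Tap1 changed by 0.74 ± 0.09 and 0.31 ± 0.09 (difference adjusted p = 0.0185), and by 0.18 in the triple pair without triple knockdown replicates 1 and 5. These 2 genes overlap on opposite strands at their starts, and the sources used here do not say that counting used strand. Among other shared genes of the interferon list, Cmpk2, a nucleotide kinase next to Rsad2, rose by 0.91 and 0.43, Ifi44 by 0.66 and 1.17 and Oas2, which senses double-stranded RNA, by 0.85 and 0.52. Phf11d, which is in neither list, showed the same order of groups (256 ± 8.37, 518 ± 61.9, 74.8 ± 17.6 and 162 ± 76.1 with 50 nM scrambled siRNA, Sec24B knockdown, 150 nM scrambled siRNA and triple knockdown).

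**Figure D4:**
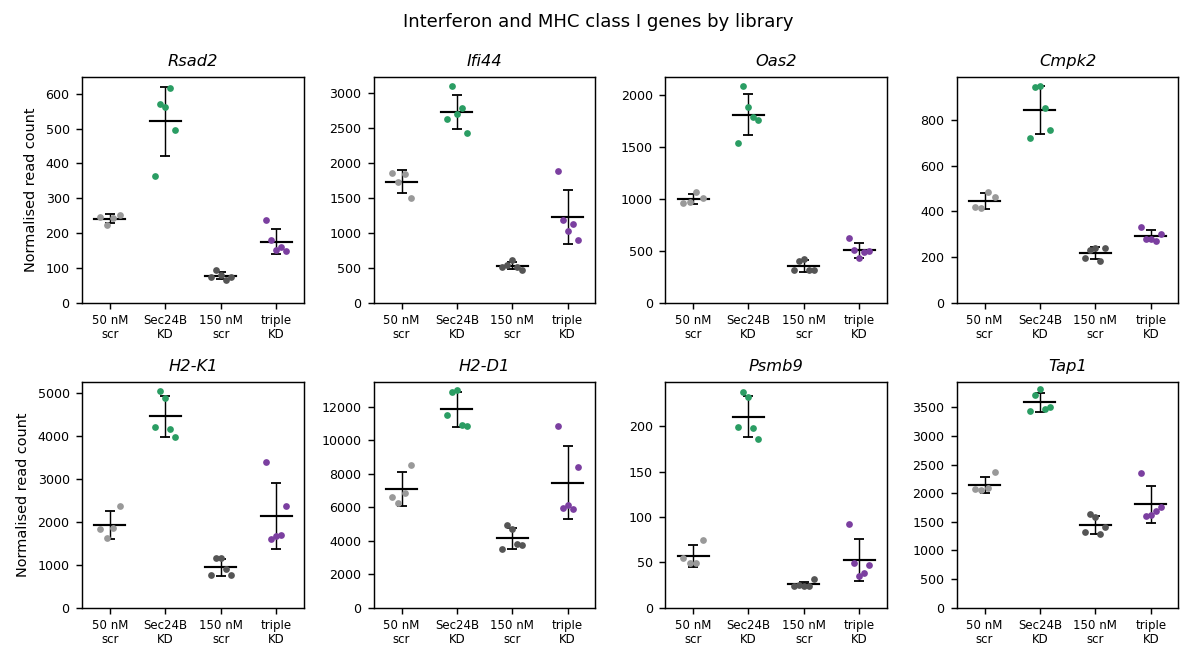
Normalised read count of each library for 4 interferon-stimulated and 4 MHC class I pathway genes, with group mean and SD (4, 5, 5 and 5 libraries; axes start at 0). Each knockdown lies above its own control on average, the 150 nM controls lie below the 50 nM controls, and the triple knockdown mostly covers or lies below the 50 nM controls.

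Promoter windows of members of this group and of the stress group below are shown because both are known to share short promoter elements. The windows are RefSeq sequences (GRCm38.p6) from 250 bases before to 50 bases after the start of a gene, and 12462 of the genes tested had one, among them 484 of the higher and 616 of the lower shared genes. The run GAAANNGAA, a form of the core of the interferon-stimulated response element, was searched on both strands. It was in 7.20% of all windows, 9.30% of those of higher and 5.68% of those of lower shared genes, and in 4 of 14 windows of shared interferon and MHC class I genes. TGATGNAA, the core of the element bound by ATF4 with C/EBP partners, was in 2.38% of all windows, 4.34% of those of higher and 1.46% of those of lower shared genes, and in 4 of 10 windows of shared ATF4 and CHOP targets. The core bound by TEAD factors, GGAATG, was in 12.3% of all windows, 10.1% of those of higher and 10.9% of those of lower shared genes. TGANTCA, bound by AP-1, was in 5.91%, 5.37% and 5.84%, and the heat shock element core GAANNTTC in 5.74%, 5.79% and 6.17%. The motifs were chosen after the values were seen, and a match is only a run of letters. Matches are in capitals in the sequences below, at position -119 in Rsad2, -3 in Ifi44, 14 in Trib3 and -23 in Asns, with 0 as RefSeq's first base of the gene. The windows of Cmpk2, Psmb9, Tap1, H2-K1, H2-D1 and Phf11d held no GAAANNGAA and that of Atf5 no TGATGNAA. Other forms of these elements were not searched, so the lack of a match does not show that a window lacks the element.
Rsad2 (chr12:26456403-26456702, minus strand): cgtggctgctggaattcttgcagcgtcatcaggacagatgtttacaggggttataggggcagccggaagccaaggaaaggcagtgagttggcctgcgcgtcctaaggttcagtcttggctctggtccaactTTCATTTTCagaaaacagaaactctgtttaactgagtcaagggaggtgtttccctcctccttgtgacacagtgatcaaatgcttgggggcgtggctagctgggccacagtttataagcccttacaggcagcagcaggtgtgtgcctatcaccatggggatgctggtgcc
Ifi44 (chr3:151749861-151750160, minus strand): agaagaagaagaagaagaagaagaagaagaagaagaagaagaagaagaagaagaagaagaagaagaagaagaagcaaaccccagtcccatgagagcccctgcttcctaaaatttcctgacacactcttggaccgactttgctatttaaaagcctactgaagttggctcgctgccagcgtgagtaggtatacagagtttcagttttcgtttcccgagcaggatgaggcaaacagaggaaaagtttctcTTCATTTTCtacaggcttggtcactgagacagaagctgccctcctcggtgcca
Trib3 (chr2:152344011-152344310, minus strand): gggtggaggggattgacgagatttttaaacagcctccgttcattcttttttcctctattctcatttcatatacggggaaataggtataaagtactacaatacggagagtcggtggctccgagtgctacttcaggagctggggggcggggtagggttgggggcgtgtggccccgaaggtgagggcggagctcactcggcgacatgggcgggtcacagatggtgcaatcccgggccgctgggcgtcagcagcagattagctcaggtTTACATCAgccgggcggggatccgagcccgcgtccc
Asns (chr6:7693160-7693459, minus strand): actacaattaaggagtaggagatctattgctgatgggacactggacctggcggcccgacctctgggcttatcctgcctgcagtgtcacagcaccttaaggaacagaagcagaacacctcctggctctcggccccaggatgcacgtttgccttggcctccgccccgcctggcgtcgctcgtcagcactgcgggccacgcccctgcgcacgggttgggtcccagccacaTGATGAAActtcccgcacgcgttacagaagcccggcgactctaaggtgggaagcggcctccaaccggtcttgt

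Several targets of ATF4 and CHOP, the factors of the integrated stress response, were higher in both knockdowns and more so in the triple knockdown. Of 34 genes 12 rose in both (35.3%, against 3.21% of all genes tested) and 0 fell, with list medians of 0.20 and 1.24. For all 12 the rise was larger in the triple knockdown by the test of the difference. Trib3 (ENSMUSG00000032715, chromosome 2, 152337422 to 152344032), a pseudokinase that dampens this response, was 933, 1002, 876 and 894 with 50 nM scrambled siRNA and 1446, 1311, 1399, 1243 and 1324 in the Sec24B knockdown. It was 681, 844, 744, 517 and 562 with 150 nM scrambled siRNA and 3747, 2912, 3079.7, 3006 and 3446 in the triple knockdown. All 10 knockdown libraries lay above all 9 controls, and the effects differed (0.54 ± 0.10 and 2.29 ± 0.10, difference 1.75 ± 0.14, limma adjusted p = 5.19e-09). Slc7a5 (ENSMUSG00000040010, chromosome 8, 121881150 to 121907694), a transporter of large neutral amino acids, was 2526, 2719, 2682 and 2785 with 50 nM scrambled siRNA and 4253, 4863, 4903, 4088 and 4473 with Sec24B knocked down. In the triple pair it was 1918, 2177, 2212, 1784 and 1888 in controls and 6291, 5373, 5476, 5526 and 5764 in the knockdown, again with no overlap (0.75 ± 0.07 and 1.51 ± 0.07). Asparagine synthetase Asns rose by 0.42 ± 0.07 and 1.46 ± 0.07 and the transcription factor Atf5 by 0.85 ± 0.10 and 1.74 ± 0.09. For 8 of the 12 genes the 150 nM controls were lower than the 50 nM controls, as for Trib3 (-0.49, adjusted p = 0.00332).

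Among the aminoacyl-tRNA synthetases, some of them ATF4 targets themselves, 4 of 20 genes were higher in both and 0 lower (medians 0.08 and 0.80). These 4 were 20% of the list, against 3.21% of all genes tested. Aars rose by 0.24 ± 0.06 and 0.73 ± 0.06 and Sars by 0.25 ± 0.07 and 1.00 ± 0.07; Sars did not pass in the Sec24B pair without 50 nM scrambled replicate 3 (0.23). Eprs and Iars were the other members. Aldh1l2, a mitochondrial enzyme of folate metabolism and an ATF4 target, had a difference of 1.80 between the pairs (0.65 and 2.45).

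**Figure D5:**
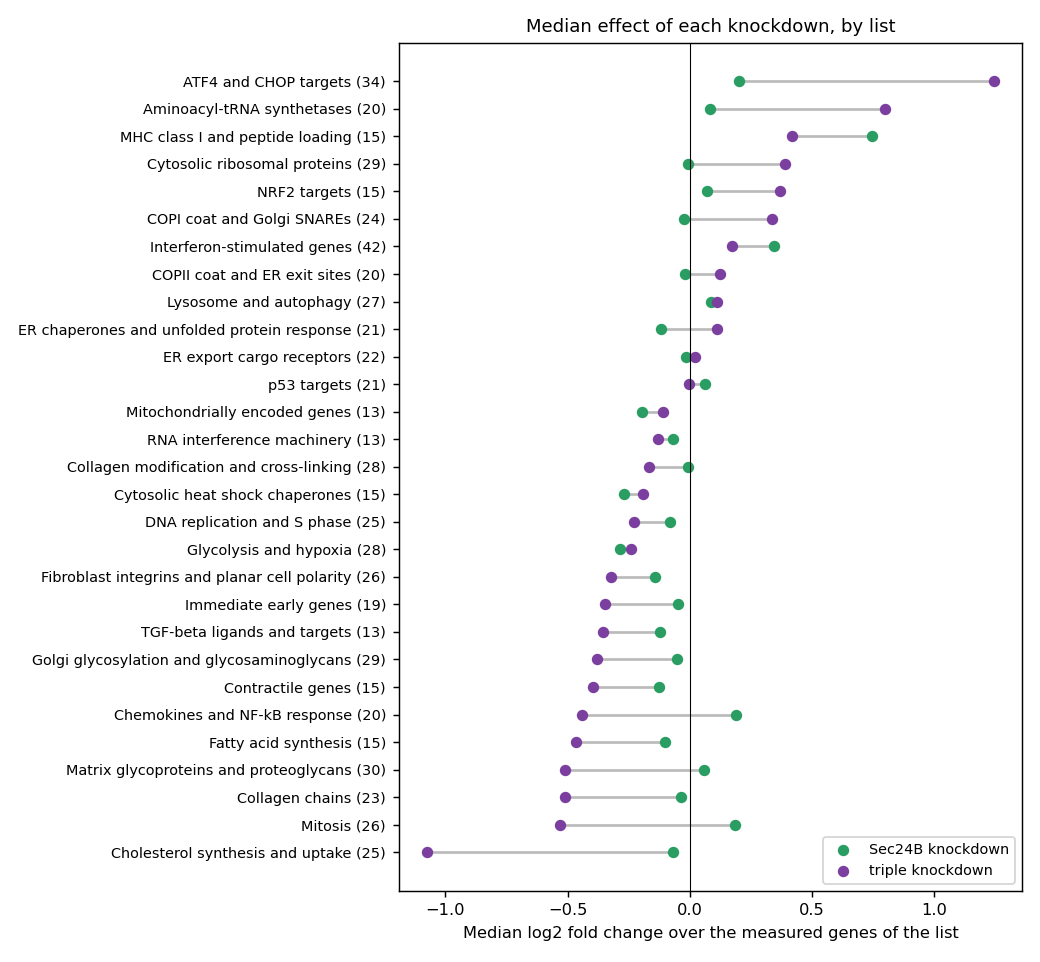
Median log2 fold change of each of 29 lists in the Sec24B knockdown (green) and the triple knockdown (purple), with the number of measured genes in parentheses. ATF4 and CHOP targets (0.20 and 1.24) and cholesterol genes (-0.07 and -1.08) lie far apart between the knockdowns, glycolysis and hypoxia genes (-0.28 and -0.24) close together, and mitosis genes (0.18 and -0.53) on opposite sides of 0.

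Of the secretory machinery, shared genes moved in both directions. In the COPII and ER exit site list 5% were higher and 10% lower in both pairs, against 3.21% and 4.13% of all genes tested. Of 20 COPII and ER exit site genes 1 was higher and 2 lower in both pairs (medians -0.02 and 0.12): Sec24b, the siRNA target, Sec23b, its partner in the inner coat, and Sec16b, a scaffold of exit sites, which was the higher one. Sec23b went from 1279.8–1391 to 1039–1255 and from 1224–1358 to 1079–1263 (-0.22 ± 0.06 and -0.17 ± 0.06, limma adjusted p = 0.0163 and 0.0251). It ceased to be shared when any of 5 libraries was left out (triple replicate 2, Sec24B replicate 1 and 150 nM scrambled replicates 1, 4 and 5), at a log2 fold change of -0.18 in the Sec24B pair without the Sec24B library and of -0.16 in the triple pair without each of the others.

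The list of ER export cargo receptors also holds the retrieval receptors Kdelr1, Kdelr2 and Kdelr3. Of its 22 genes 4 were higher (18.2%, against 3.21% of all genes tested) and 1 lower (medians -0.01 and 0.02). Kdelr3, a receptor that returns ER proteins from the Golgi, went from 1352–1393 to 1564–1692 and from 1299.9–1473 to 1707–1957 (0.23 ± 0.05 and 0.41 ± 0.05). Mcfd2, which carries coagulation factors V and VIII out of the ER with LMAN1, rose by 0.32 ± 0.07 and 0.48 ± 0.07, and Ergic1 changed by -0.33 ± 0.06 and -0.27 ± 0.06. Of 21 ER chaperone and unfolded protein response genes 2 were higher and 4 lower (19.05%, against 4.13% of all genes tested; medians -0.12 and 0.11). Herpud1, which acts in ER-associated degradation, rose by 0.34 ± 0.08 and 1.52 ± 0.07 and the lectin chaperone gene Canx was the other riser. The lumenal chaperone Calr fell from 13934 ± 549.9 to 11279 ± 354 and from 14992 ± 674 to 11074 ± 1479, and triple knockdown replicate 1 was the highest of its group (13655, 10240.1, 10796, 9998 and 10683 in replicates 1 to 5). Hsp90b1, Pdia4 and Dnajb11 were lower too. Of 24 COPI coat and Golgi SNARE genes only the syntaxin Stx5a was shared, and it was higher (4.17%, against 3.21% of all genes tested).

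The remaining lists are given beside the shares of all genes tested, 3.21% higher and 4.13% lower in both pairs. Of 27 lysosome and autophagy genes 4 were higher (14.8%) and 1 lower (3.70%, medians 0.09 and 0.11). The hexosaminidase subunit Hexa was at 0.32 and 0.35 (0.23 without triple knockdown replicates 1 and 5) and the sialidase Neu1 at -0.28 and -0.50. Of 21 p53 targets 2 were higher (9.52%) and 1 lower (4.76%, medians 0.06 and -0.00). The proapoptotic Bbc3 (0.44 and 0.66) and Trp53inp1 (0.50 and 0.53) rose and Mdm2 fell. Of 15 NRF2 targets 1, the quinone reductase Nqo1, was higher (6.67%, list medians 0.07 and 0.37). The effects in Nqo1 were 0.67 and 0.61. Its 50 nM controls (544–576) lay below its 150 nM controls (1017–1159), and so did the Sec24B knockdown (844–928). None of 13 mitochondrially encoded genes (medians -0.19 and -0.11) and none of 29 cytosolic ribosomal protein genes (medians -0.01 and 0.39) was shared.

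The mitosis list had no shared gene, although 18 of its 26 members were lower on average (15.9% of all genes tested were). In it 11 genes were called in opposite directions (1.34% of all genes tested were). Its medians were 0.18 for the Sec24B and -0.53 for the triple knockdown. Outside the lists, Sned1, a matrix glycoprotein, was 445, 428, 440.1 and 327 with 50 nM scrambled siRNA and 539.8, 747, 768, 762 and 764 in the Sec24B knockdown. It was 364, 367, 367, 347 and 339 with 150 nM scrambled siRNA and 142, 266, 253, 257 and 179.5 in the triple knockdown, a rise in the Sec24B pair and a fall in the triple pair (0.80 ± 0.15 and -0.74 ± 0.14; average 0.03 ± 0.10, limma adjusted p = 0.852). Without triple knockdown replicates 1 and 5 its effect in the triple pair was -0.46. The membrane-type metalloproteinase Mmp15 (0.65 and -0.85) and the Wnt pathway protein Apc2 (0.85 and -0.63) did likewise. In Apc2 the 150 nM controls (240–321) lay above the 50 nM controls (144–209). The Sec24B knockdown (294–348) overlapped the former and the triple knockdown (113–204) the latter. For 227 of the 264 genes called in opposite directions the average did not pass.

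For 634 genes the average passed although neither pair did. Tkfc, a triose kinase, had log2 fold changes of 0.25 ± 0.09 and 0.21 ± 0.08 (limma adjusted p = 0.0631 and 0.0507) and an average of 0.23 ± 0.06 (adjusted p = 0.00475). It is not counted as shared.

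Shared genes whose changes differed most between the pairs were of both kinds. Angptl6, a secreted angiopoietin-like protein, was 18.9–47.8 and 49.5–76.2 in the Sec24B pair and 19.8–26.2 and 249.8–476 in the triple pair (0.92 ± 0.22 and 3.67 ± 0.20, difference limma adjusted p = 4.25e-07). Cdsn, known as an adhesive protein of skin, went from 869 ± 45.6 to 1087 ± 51.5 and from 657 ± 31.4 to 4563 ± 933; it did not pass in the Sec24B pair without 50 nM scrambled replicate 1 (0.29). In the other direction, Vnn1, a pantetheinase, went from 168–214 to 516–644 and from 132–153 to 183–256 (1.61 ± 0.10 and 0.54 ± 0.09, difference adjusted p = 3.66e-06). Pcx, pyruvate carboxylase, went from 156–179.5 to 328–419 and from 117–153 to 194–261, and Pgrmc2, a heme-binding protein of the ER membrane, changed by -1.05 and -0.50. These genes were named for the size of the difference, so that size is a description.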

How the data were processed

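Bulk RNA-seq of 19 libraries was analysed at the level of genes. The table deposited by the authors holds a normalised signal per gene and library, gene counts divided by a size factor of each library; the read counter, the size factors and whether counting used strand are not given in the sources used here. All values (100%) were whole multiples, within 0.0055 reads, of a step of each library, so reads could be recovered. TopHat2 2.0.8, Trimmomatic 0.27, Partek 6.6 and FastQC 0.10.1 are listed in the submitters' processing notes, together with human builds (hg19, GRCh37), whereas the gene IDs are mouse: 19586 of the 19635 tested matched GENCODE M21 (GRCm38), from which symbols and coordinates were taken.

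A gene was tested where 4 or more libraries had a value of 1 or more. Values were put on a log2 scale after adding 1, and limma 3.58.1 (R 4.3.3, trend) was fitted with 4 group means. The contrasts were each knockdown against its own control, their average and their difference, with Benjamini-Hochberg adjustment over all genes tested and a threshold of 0.05. Fold changes are on the log2(value + 1) scale, which understates changes of low genes, with the standard error of the fit; values in groups are means ± SD over 4 libraries (50 nM scrambled) or 5. Members, lists and markers were chosen with earlier results of these data known. The rule for named genes took the 12 largest rises and falls by the smaller effect (mean of at least 50, no overlap within pairs), up to 4 genes of each list by the adjusted p of the average, the genes with the largest differences and opposite changes, and genes called on average only; other genes were named after their values were seen. Some genes that the rule took are not reported here. The edgeR 4.0.16 quasi-likelihood test, DESeq2 1.42.0, other filters, pseudocounts, quantile normalisation, a replicate block and left-out libraries were alternatives. The code was tested on simulated data. Figures used matplotlib 3.10.9 (Python 3.11.15).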

Additional observations from a re-analysis of the deposited data

Results flagged for a closer look

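A library stood away from the rest of its group for 32 of 360 combinations of a gene and a group examined, where chance flags about 1 in 20 groups, and 13 of the 32 were triple knockdown replicate 1. Triple knockdown replicate 1 lay above the others of its group, whose range of normalised counts is in parentheses, in Scara5 at 167 (51.5 to 61.9), Phf11d at 297 (113 to 139.7), Psmb9 at 92.3 (34.9 to 48.9) and Calr at 13655 (9998 to 10796). The same library lay above the others in Asns at 6008 (4591 to 4831), Tap1 at 2359.7 (1595 to 1758), Sparc at 22370.2 (17036 to 17933) and Ndrg1 at 3055 (1789 to 2120.3). The same library lay above the others in Cdsn at 6207 (3943 to 4349) and Vnn1 at 256 (183 to 201). Triple knockdown replicate 1 lay below the others in Ergic1 at 2969.8 (3319.7 to 3416), Fosl2 at 1054 (1836 to 2096) and Apc2 at 113 (186 to 204). Triple knockdown replicate 5 lay above the others in Col7a1 at 714 (567 to 605). Sec24B knockdown replicate 1 lay below the others in Fosl2 at 1800.1 (2112 to 2210.0) and Sned1 at 539.8 (747 to 768). Sec24B knockdown replicate 2 lay above the others in Ptgs2 at 265 (236 to 242). Sec24B knockdown replicate 4 lay below the others in Sparc at 21149.6 (22005 to 22203). Sec24B knockdown replicate 5 lay below the others in Tkfc at 516 (541 to 548). 50 nM scrambled replicate 3 lay above the others in Hspa4l at 262 (227 to 233) and Ext1 at 2666 (2496 to 2513). 50 nM scrambled replicate 3 lay below the others in Sars at 3749.7 (4001 to 4028). 50 nM scrambled replicate 4 lay above the others in Tap1 at 2362 (2058 to 2082) and Bhlhe40 at 1133 (1019 to 1034). 50 nM scrambled replicate 4 lay below the others in Plxna4 at 67.3 (83.9 to 87.2) and Sned1 at 327 (428 to 445). 150 nM scrambled replicate 1 lay above the others in Trp53inp1 at 752 (598 to 636). 150 nM scrambled replicate 2 lay below the others in Hsph1 at 2889 (3112 to 3181). 150 nM scrambled replicate 3 lay above the others in Itga5 at 5637 (5202 to 5304). 150 nM scrambled replicate 3 lay below the others in Ccl2 at 2702 (3087 to 3186). 150 nM scrambled replicate 5 lay above the others in Psmb9 at 31.3 (23.7 to 24.6). 150 nM scrambled replicate 5 lay below the others in Pgrmc2 at 1242 (1299.9 to 1316).

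The effects of the 2 knockdowns differed for 43 of the 90 genes followed by name, by the test of the difference (triple minus Sec24B effect, log2 scale, limma adjusted p of at most 0.05). Genes higher in both knockdowns and more so in the triple knockdown were Sh3tc2 (1.15), Angptl6 (2.75), Chd5 (0.58), Herpud1 (1.18), Slc7a5 (0.76), Trib3 (1.75), Asns (1.04), Atf5 (0.90) and Sars (0.75). Also in that set were Aars (0.49), Ndrg1 (1.33), Cdsn (2.45) and Aldh1l2 (1.80). Genes higher in both and more so in the Sec24B knockdown were Cpz (-0.48), Psmb9 (-0.97), Cmpk2 (-0.48), Tap1 (-0.44), Egr1 (-0.85), Vnn1 (-1.07) and Pcx (-0.53). Genes lower in both and more so in the triple knockdown were Ndnf (-1.25), Lox (-0.44), Nrep (-0.92), Ccl2 (-0.51), Hsd17b7 (-1.42), Acsl3 (-0.74), Col7a1 (-0.47), Col12a1 (-0.72) and Loxl1 (-0.34). Also in that set were Thbs1 (-0.60), Tnc (-0.88), Tpm1 (-0.33), St6gal1 (-0.40), Fosl2 (-0.54), Itga5 (-0.29) and Itga3 (-0.45). Lower in both and more so in the Sec24B knockdown were Skil (0.62) and Pgrmc2 (0.55). The genes called in opposite directions among them were Sned1 (-1.54), Mmp15 (-1.49) and Apc2 (-1.48). The siRNA targets among them were Sec24a (-0.57) and Sec24c (-1.79). The difference did not pass with each of the 19 libraries left out in turn for 6 of the 43: it passed in 8 for Sec24a, 12 for Sh3tc2, 13 for Chd5, 11 for Loxl1, 17 for St6gal1 and 8 for Fosl2. Several of these genes were named for their pattern over these same libraries, and no cause of any of these values was tested.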

How the results depend on the processing

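The count of shared genes moved most with the threshold: at an adjusted p of 0.01 there were 314 higher and 472 lower, 103 in opposite directions, 2105 higher on average (2229 lower), and 762 genes with the triple effect above and 951 with it below the Sec24B effect (1461 and 1646 at 0.05). Opposite calls rose from 264 to 441 without triple knockdown replicates 1 and 5, and to 531 without 50 nM scrambled replicate 4 as well, alternatives chosen after seeing the data; the cause was not tested. Leaving out each library in turn gave 481 to 759 higher, 619 to 1000 lower and 184 to 373 opposite genes, 2840 to 3263 higher and 2805 to 3287 lower on average, and differences of 1180 to 1659 (triple above) and 1401 to 1859 (triple below); these fits kept 75.8% to 94.8% of the shared genes. The lowest share was without 50 nM scrambled replicate 3. With the replicate block the shared genes were 597 and 792 and the opposite ones 223. Whether same-numbered libraries belong together is not in the labels. Their deviations from the group means correlated at -0.36 to 0.12, which cannot decide it. edgeR with TMM on the recovered reads gave 610 higher and 878 lower shared genes, DESeq2 706 and 949, and quantile normalisation 620 and 745, with 82.7% of the shared genes kept. Pseudocounts of 0.5 and 4, no filter, a filter of 10 and a fit on each pair alone stayed within 1.5 times of every count they gave; the last gives no average or difference. Of 90 genes followed by name, 83 were shared and 77 in every setting; the others were Sec23b, Sars, Tpm1 (quantile normalisation), Skil, Bbc3 and Cdsn. No average effect of a named gene reversed where it was called. Depth limits low genes: 19 higher and 13 lower shared genes had a mean level under 10.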
